A study of Mus musculus with 9 samples.

Results

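The genes described are 9 members of the bone morphogenetic protein (BMP) pathway and its Id targets, taken by gene symbol from a table of 35771 mouse genes: the ligand Bmp4, the receptors Bmpr1a and Bmpr2, the signal carriers Smad1 and Smad5, the inhibitor Smad6, and the targets Id1, Id2 and Id3. All 9 were present and all 9 passed the filter on low counts, which left 13424 genes. RNA sequencing was done on embryonic stem cells (ESCs) of the mouse, of a mixed strain background, that were homozygous for the iMOS T1-Myc allele and carried RERT, in every group including the control. The first group was sorted as having 2 extra copies of Myc and EYFP (a yellow fluorescent protein), and the second as having no extra copy. Both came from mosaic cultures given 20 µM 4-hydroxytamoxifen for 24 h and sorted by EYFP level 24 h after the drug was removed. The third group was sorted from uninduced cultures of the same line, and its samples carry the drug text of the other groups in the labels, so the titles and design text were used for the grouping. Each group had 3 libraries, which the design text calls biological replicas; whether they were separate cultures is not stated, so the p-values measure the spread between these samples. The number of clones behind the line and the promoter that drives the extra Myc are not stated, and gene counts do not separate transgenic from endogenous Myc. Myc itself stood at 142 ± 4.36 CPM (counts scaled to a common library total) with 2 extra copies, 31.6 ± 0.913 CPM with no extra copy and 13.3 ± 1.51 CPM in uninduced cells (SD, n = 3 each), so the cells sorted as having no extra copy were not at the uninduced level.

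BMP ligands bind a pair of type I and type II receptors at the cell surface. The type I receptor then phosphorylates SMAD1, SMAD5 and SMAD9, which join SMAD4, enter the nucleus and switch on targets, among them the Id genes and the feedback inhibitor Smad6. Id proteins lack a DNA-binding region and act by holding E proteins away from DNA, and in mouse ESCs grown with LIF the BMP to Id route is known for holding back neural differentiation.

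Promoter sequences are shown for Bmp4, Id2 and Id3, because these were the members called in at least 2 of the 3 comparisons below. The RefSeq table on GRCm38.p6 held 8 of the 9 members. Each window runs from 250 bases before the annotated start to 50 after it, written 5′ to 3′ on the gene's strand. Capitals mark the E-box CACGTG, a known binding sequence of Myc with its partner Max, and GGCGCC, a GC-rich sequence known to bind BMP-type SMAD proteins. Both motifs read the same on either strand and do not overlap each other here.
Bmp4, chr14:46390620-46390919, minus strand: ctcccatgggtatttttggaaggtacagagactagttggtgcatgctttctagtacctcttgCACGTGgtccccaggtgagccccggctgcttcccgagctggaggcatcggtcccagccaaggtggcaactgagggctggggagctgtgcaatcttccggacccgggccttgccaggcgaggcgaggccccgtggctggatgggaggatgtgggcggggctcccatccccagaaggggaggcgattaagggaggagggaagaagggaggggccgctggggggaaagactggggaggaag
Id2, chr12:25096043-25096342, minus strand: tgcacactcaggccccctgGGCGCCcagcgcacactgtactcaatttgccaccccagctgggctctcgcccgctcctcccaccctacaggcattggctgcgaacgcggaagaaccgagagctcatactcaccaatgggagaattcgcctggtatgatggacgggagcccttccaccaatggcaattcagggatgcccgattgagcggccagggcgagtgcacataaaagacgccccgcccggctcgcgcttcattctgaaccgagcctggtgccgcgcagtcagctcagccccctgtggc
Id3, chr4:136143572-136143871, plus strand: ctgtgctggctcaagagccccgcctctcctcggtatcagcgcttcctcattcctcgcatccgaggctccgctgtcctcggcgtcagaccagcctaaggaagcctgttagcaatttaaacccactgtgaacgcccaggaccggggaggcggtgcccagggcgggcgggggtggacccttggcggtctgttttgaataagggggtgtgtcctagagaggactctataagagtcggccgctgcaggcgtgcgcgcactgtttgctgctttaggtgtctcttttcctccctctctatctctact
The Bmp4 window held 1 E-box, beginning 188 bases before the start, and no GGCGCC. The Id2 window held 1 GGCGCC, beginning 231 bases before the start, and no E-box. The Id3 window held neither. Among all 32851 promoter windows, 7.15% held CACGTG and 11.9% held GGCGCC. Counted by gene, in any of a gene's windows, the shares were 8.09% and 13.4% of 27025 genes. Of the 8 members with a window, 1 held an E-box and 4 held GGCGCC, the others being Bmpr1a, Bmpr2 and Smad5, of which Smad5 has 3 windows. A match describes the letters in the window only.

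Totals ran from 4165286 to 8872303 counts per library. The 9 members are modest transcripts at this depth: Smad6 had 20 to 56 counts per library, Id2 34 to 110, Id3 37 to 114, Bmp4 40 to 112 and Id1 57 to 120, while Bmpr1a reached 320 to 660. Counting error alone comes to 13.1% of the mean for Id3 and to 4.66% for Bmpr1a. The spread within groups, as SD over mean CPM, was below counting error for Bmp4, Smad1, Smad6, Id2 and Id3 (11.3% for Id3). It was above counting error for Bmpr1a (7.18%), Bmpr2 (18.4%), Smad5 and Id1. Across all genes tested, no pair of replicates was as close as counting alone would make it: chi-square divided by its degrees of freedom ran from 1.36 to 2.96. The largest values, 2.61 and 2.96, set replicate 1 with 2 extra copies against the other libraries of its group, and results that change without it are named. How expression tracked transcript length also varied by library, with r across genes from -0.189 to 0.165. ESC markers were high in every group (10 of 10 tested, with a summed level of 3430 to 3609 CPM with 2 extra copies, 3750 to 3848 CPM with no extra copy and 3483 to 3533 CPM in uninduced cells), led by Pou5f1 and Dppa5a. Of these 10, 6 were lower and 0 higher with 2 extra copies against no extra copy (0 higher also at an unadjusted p under 0.05), 2 were higher and 1 lower with 2 extra copies against uninduced cells, and 6 were higher and 1 lower with no extra copy against uninduced cells. Of all genes tested, 8.30% were higher and 7.70% lower in the first of these comparisons. The shares were 12.8% and 12.1% in the second, and 7.10% and 6.39% in the third. The part of the ESC markers in the changes of the 9 members was not tested.

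Set against exon length, so that genes can be compared, the receptor Bmpr1a, the target Id1 and the carrier Smad5 led the 9 members and Smad6 and Bmpr2 came last in each group. Levels per length are given as TPM, in which each library's values per base of exon sum to the same total. Bmpr1a stood at 33.8 ± 1.54 TPM with 2 extra copies, 37.5 ± 2.61 TPM with no extra copy and 37.8 ± 3.61 TPM in uninduced cells (SD, n = 3 each). Id1 stood at 30.2 ± 2.07, 37.3 ± 5.76 and 26.4 ± 3.38 TPM in the same groups, within 1 SD of Bmpr1a with no extra copy and of Smad5 (27.6 ± 1.09 TPM) in uninduced cells. The order of the middle members differed between groups. Id3 ranked just after these leaders with 2 extra copies (15.3 ± 1.69 TPM) and with no extra copy (24.0 ± 0.673 TPM), but below Id2 and Bmp4 in uninduced cells (10.4 ± 1.64 TPM). There Bmp4 (11.0 ± 0.451 TPM) lay within the SD of Id3 and within that of Id2 (12.9 ± 1.95 TPM). Id2 was above Id3 in each uninduced library (14.7, 10.9 and 13.2 against 9.76, 9.24 and 12.3 TPM). Id2 was at 8.49 ± 0.747 TPM with 2 extra copies and 16.1 ± 0.468 TPM with no extra copy. Smad1 lay below these at 7.59 ± 0.569, 8.03 ± 0.881 and 8.78 ± 0.399 TPM. Bmp4 lay within 1 SD of Id3 with 2 extra copies (14.6 ± 1.71 TPM) and of Id2 with no extra copy (16.7 ± 2.34 TPM). Smad6 stood at 3.66 ± 0.0837 TPM with 2 extra copies, 6.04 ± 0.991 TPM with no extra copy and 4.60 ± 1.19 TPM in uninduced cells. Bmpr2 stood at 3.29 ± 0.771, 4.27 ± 0.417 and 4.24 ± 0.966 TPM in the same groups, more than 1 SD below Smad6 with no extra copy and within 1 SD of it in the other groups. The length used is the union of annotated exons (17983 bases for Bmpr2, 1160 for Id1), so a gene that uses a shorter transcript is understated.

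**Figure D1:**
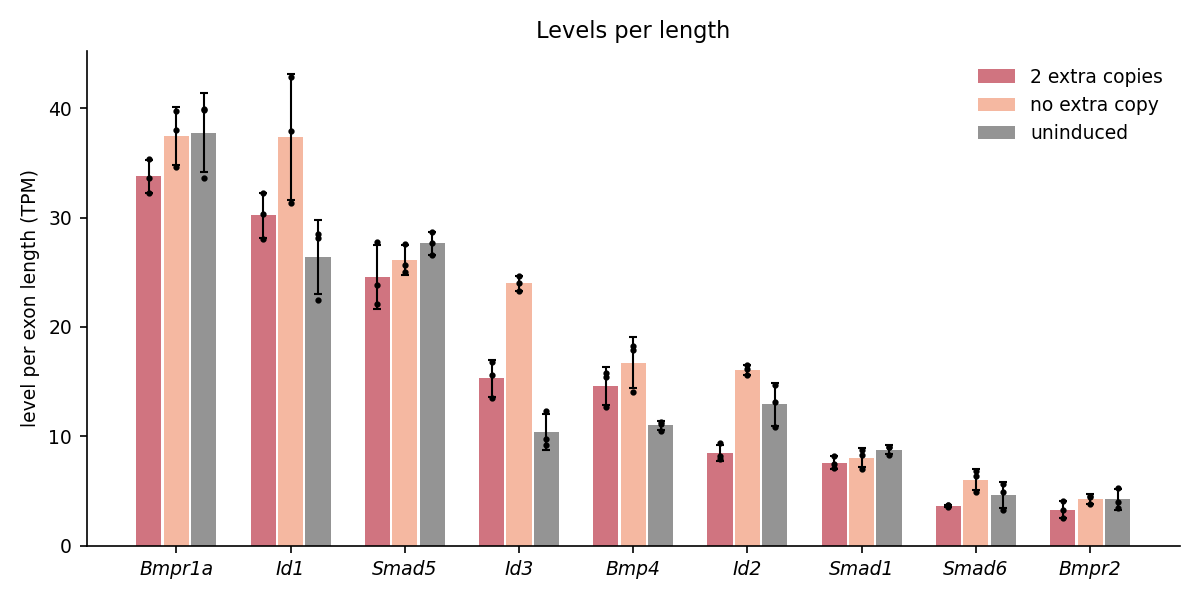
Level per exon length (TPM, linear axis from 0) of the 9 genes, ordered by their mean over all libraries. Bars are means of 3 libraries, error bars are SD and points are libraries; Bmpr1a, Id1 and Smad5 stand highest, and Smad6 and Bmpr2 lowest, in each group.

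The ligand and the receptors come first. Bmp4 (ENSMUSG00000021835; GRCm38 chromosome 14, 46383520 to 46390669, minus strand) encodes the BMP ligand among the members. It stood at 8.77, 11.2 and 11.0 CPM in cells with 2 extra copies, 12.2, 12.5 and 9.53 CPM in cells with no extra copy, and 7.59, 7.18 and 7.70 CPM in uninduced cells. Every library of the induced cultures lay above every uninduced library, and the induced groups overlapped each other. Bmp4 was 1.38-fold higher with 2 extra copies than in uninduced cells (log2 0.47, SE 0.16, adjusted p = 0.0278) and 1.56-fold higher with no extra copy than in uninduced cells (log2 0.64, SE 0.15, adjusted p = 0.00381). All adjusted p-values are from edgeR's quasi-likelihood test over 13424 genes unless another tool is named. The first of these calls was lost without replicate 2 (adjusted p = 0.104) or 3 (0.115) with 2 extra copies, without uninduced replicate 1 (0.0620) or 2 (0.0884) and with DESeq2 (0.144). The second was lost without replicate 2 with no extra copy (0.0511) and with DESeq2 (0.0572). Between 2 extra copies and no extra copy the log2 change was -0.17 (95% interval -0.48 to 0.13, adjusted p = 0.486). In bulk RNA a change in the level per cell and a change in the share of cells that express a gene cannot be told apart, here or below.

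Bmpr1a (ENSMUSG00000021796; chromosome 14, 34410734 to 34503341, minus strand), the type I receptor, held nearly the same level in all groups. It was at 65.9, 71.0 and 65.2 CPM with 2 extra copies, 66.8, 73.7 and 76.2 CPM with no extra copy, and 75.2, 65.0 and 77.9 CPM in uninduced cells. The groups overlapped in all 3 comparisons, and the intervals of the log2 change ran from -0.24 to 0.04 (2 extra copies against no extra copy), from -0.24 to 0.03 (2 extra copies against uninduced) and from -0.14 to 0.13 (no extra copy against uninduced). Bmpr2 (ENSMUSG00000067336; chromosome 1, 59763400 to 59879014, plus strand), the type II receptor, varied more between libraries. It was at 22.6, 18.6 and 14.5 CPM with 2 extra copies, 20.7, 24.5 and 24.8 CPM with no extra copy, and 28.4, 21.8 and 18.9 CPM in uninduced cells. Its log2 change was -0.35 with 2 extra copies against no extra copy (95% interval -0.74 to 0.04, adjusted p = 0.233) and -0.33 against uninduced cells (95% interval -0.71 to 0.05, adjusted p = 0.197). Without replicate 1 with 2 extra copies these became -0.50 (adjusted p = 0.0277) and -0.48 (adjusted p = 0.0209), so the call depends on this library. It also depends on the filter. With no filter on low counts the log2 changes were -0.34 and -0.33 and the adjusted p was 0.0295 and 0.0206. Bmpr2 has the longest exons of the members, and the length trend differed between libraries; its part in these values was not tested beyond the alternatives given at the end.

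The signal carriers came next. Smad1 (ENSMUSG00000031681; chromosome 8, 79338395 to 79399518, minus strand) was at 14.4, 14.1 and 16.4 CPM with 2 extra copies, 16.7, 15.9 and 13.3 CPM with no extra copy, and 16.7, 15.9 and 17.4 CPM in uninduced cells. Smad5 (ENSMUSG00000021540; chromosome 13, 56703010 to 56742377, plus strand) was at 63.6, 55.8 and 52.2 CPM with 2 extra copies, 58.0, 56.6 and 61.9 CPM with no extra copy, and 63.4, 62.5 and 60.5 CPM in uninduced cells. For both genes the groups overlapped in every comparison and none of the changes passed the test. For Smad1 the 95% interval of the log2 change was -0.29 to 0.20 with 2 extra copies against no extra copy, -0.38 to 0.09 with 2 extra copies against uninduced cells and -0.34 to 0.13 with no extra copy against uninduced cells. For Smad5 the intervals were -0.18 to 0.11, -0.27 to 0.01 and -0.23 to 0.05 in the same order. For 2 extra copies against uninduced cells, the Smad5 change without replicate 1 with 2 extra copies was -0.20 with adjusted p = 0.0328. The shared partner Smad4 was at 86.5 ± 5.46 CPM with 2 extra copies, 77.7 ± 3.84 CPM with no extra copy and 90.2 ± 1.41 CPM in uninduced cells (SD, n = 3 each). It fell 1.16-fold with no extra copy against uninduced cells (adjusted p = 0.00730, but 0.0595 without replicate 1 with no extra copy and 0.0773 with DESeq2) and had adjusted p = 0.0694 with 2 extra copies against no extra copy (0.0198 without replicate 3 with 2 extra copies) and 0.428 with 2 extra copies against uninduced cells.

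Smad6 (ENSMUSG00000036867; chromosome 9, 63953076 to 64022059, minus strand), an inhibitory SMAD that BMP signals induce, was at 3.68, 3.61 and 3.77 CPM with 2 extra copies, 6.63, 6.25 and 4.76 CPM with no extra copy, and 5.34, 4.79 and 3.23 CPM in uninduced cells. The libraries with 2 extra copies lay below all libraries with no extra copy and overlapped the uninduced ones. Smad6 was 1.62-fold lower with 2 extra copies than with no extra copy (log2 -0.70, SE 0.23, adjusted p = 0.0335). That call was fragile: it was lost without any 1 library with 2 extra copies (adjusted p = 0.0627, 0.0835 and 0.0875), without replicate 1 or 2 with no extra copy (0.117 and 0.134), with DESeq2 (0.202), with limma-voom (0.0509) and with length and GC offsets (0.05003). Against uninduced cells its log2 change was -0.28 with 2 extra copies (95% interval -0.76 to 0.20) and 0.42 with no extra copy (95% interval -0.02 to 0.85).

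**Figure D2:**
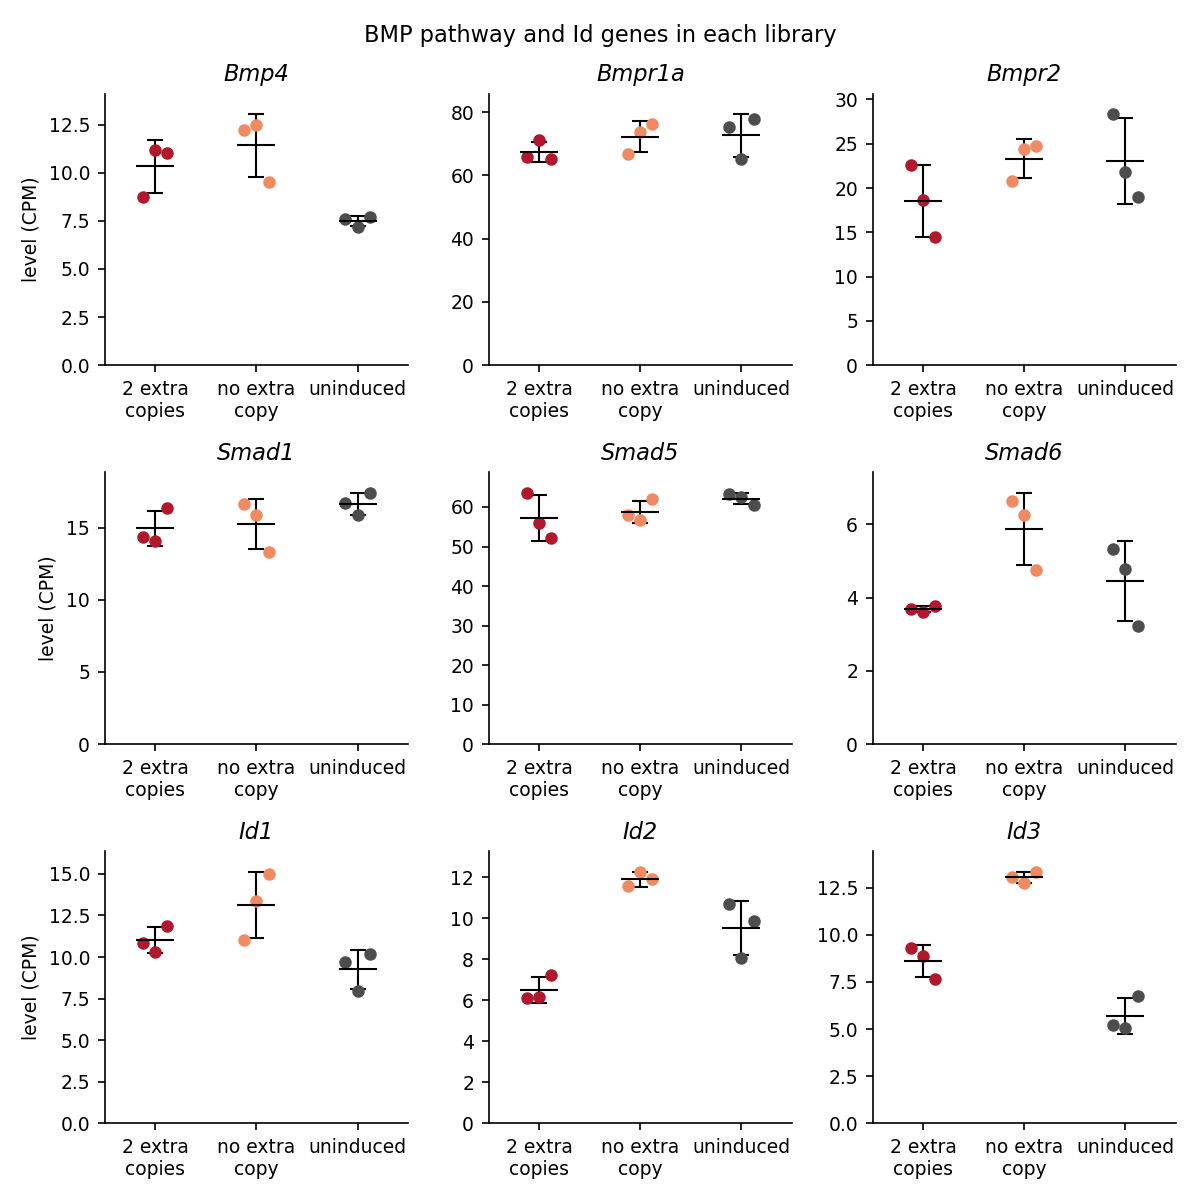
Level in CPM (linear axes from 0) of each of the 9 genes in 3 libraries per group; points are libraries, horizontal marks are means and error bars are SD. Id3 in cells with no extra copy (12.7 to 13.3 CPM) stands above both other groups, Id2 with 2 extra copies (6.14 to 7.24 CPM) below them, and Bmpr1a and Smad5 show overlapping groups.

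The 3 Id targets did not share 1 pattern. Id3 (ENSMUSG00000007872; chromosome 4, 136143497 to 136145755, plus strand) was at 9.29, 8.85 and 7.68 CPM with 2 extra copies, 13.1, 12.7 and 13.3 CPM with no extra copy, and 5.20, 5.04 and 6.77 CPM in uninduced cells. No 2 groups overlapped, with the cells with no extra copy highest and the uninduced cells lowest. With no extra copy Id3 was 2.31-fold higher than in uninduced cells (log2 1.21, SE 0.16, adjusted p = 9.57e-07), the largest change among the 9 members in any comparison. With 2 extra copies it was 1.52-fold lower than with no extra copy (log2 -0.60, SE 0.15, adjusted p = 0.00527) and 1.52-fold higher than in uninduced cells (log2 0.60, SE 0.17, adjusted p = 0.00892). The rise with no extra copy passed in all 21 alternatives. The fall against no extra copy was lost without replicate 3 with 2 extra copies (adjusted p = 0.0524) and with DESeq2 (0.0710), and the rise over uninduced cells without uninduced replicate 2 (0.0546) and with DESeq2 (0.0624).

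Id2 (ENSMUSG00000020644; chromosome 12, 25093799 to 25097140, minus strand) was lowest with 2 extra copies. It was at 6.14, 6.14 and 7.24 CPM there, 11.6, 12.3 and 11.9 CPM with no extra copy, and 10.7, 8.07 and 9.85 CPM in uninduced cells, and no groups overlapped. Id2 was 1.82-fold lower with 2 extra copies than with no extra copy (log2 -0.87, SE 0.16, adjusted p = 0.000234), which passed in all 21 alternatives. It was 1.45-fold lower than in uninduced cells (log2 -0.53, SE 0.16, adjusted p = 0.0156), a call lost without replicate 1 (adjusted p = 0.0516) or 2 (0.0590) with 2 extra copies, without uninduced replicate 1 (0.0961) and with DESeq2 (0.110). With no extra copy against uninduced cells its log2 change was 0.33 (95% interval 0.04 to 0.63, adjusted p = 0.138), although the libraries did not overlap.

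Id1 (ENSMUSG00000042745; chromosome 2, 152736251 to 152737410, plus strand) was at 10.9, 10.3 and 11.9 CPM with 2 extra copies, 11.0, 13.4 and 15.0 CPM with no extra copy, and 9.70, 7.94 and 10.2 CPM in uninduced cells. All induced libraries lay above all uninduced ones, and the induced groups overlapped. Id1 was 1.42-fold higher with no extra copy than in uninduced cells (log2 0.50, SE 0.15, adjusted p = 0.0172). That call was lost without replicate 2 (adjusted p = 0.0923) or 3 (0.0804) with no extra copy, without uninduced replicate 2 (0.126) and with DESeq2 (0.137). Its log2 change with 2 extra copies was -0.24 against no extra copy (95% interval -0.53 to 0.06) and 0.26 against uninduced cells (95% interval -0.04 to 0.57).

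The mix of Id transcripts is given as shares. Of the summed CPM of Id1, Id2 and Id3, Id3 made up 33.0 ± 3.77% with 2 extra copies, 34.3 ± 2.04% with no extra copy and 23.2 ± 2.57% in uninduced cells. Id2 made up 24.9 ± 1.92%, 31.3 ± 1.51% and 39.0 ± 2.55% in the same groups (SD, n = 3 each). Id1 made up 42.1 ± 1.93%, 34.4 ± 3.19% and 37.9 ± 0.114%. The sum itself was 26.1 ± 0.766 CPM with 2 extra copies, 38.1 ± 2.29 CPM with no extra copy and 24.5 ± 3.03 CPM in uninduced cells. The sum with 2 extra copies lay within the SD of the sum in uninduced cells. Against uninduced cells, the cells with 2 extra copies had a lower share of Id2 and higher shares of Id3 and Id1. These shares are CPM values that are not scaled to length and are given as a description with no test.

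Counted over the 9 members, 0 rose and 3 fell (Smad6, Id2 and Id3) with 2 extra copies against no extra copy, where 16.0% of all genes tested were called, 8.30% higher and 7.70% lower. All 9 log2 changes were negative in the main fit. Those of Smad1 (-0.045) and Smad5 (-0.035) were near 0 and turned positive under some of the alternatives given at the end. No member was higher at an unadjusted p under 0.05 in edgeR, or at the adjusted threshold in limma-voom or DESeq2; DESeq2 gave 1 fall (Id2, adjusted p = 0.00513) and limma-voom 2. The median log2 change was -0.24, against -0.01 over all genes tested. With 2 extra copies against uninduced cells 2 rose (Bmp4 and Id3) and 1 fell (Id2), where 25.0% of all genes were called. The median was -0.13, against -0.01 over all genes; DESeq2 called 0 of these members and 3 at an unadjusted p under 0.05. With no extra copy against uninduced cells 3 rose (Bmp4, Id1 and Id3) and 0 fell, where 13.5% were called. No member fell at an unadjusted p under 0.05 in edgeR, or at the adjusted threshold in limma-voom or DESeq2; DESeq2 called 1 rise (Id3, adjusted p = 1.1e-05). The median was 0.33, against 0.00 over all genes. Libraries of the groups did not overlap for 3, 4 and 4 of the 9 members in these comparisons, against 30.6%, 38.5% and 31.5% of all genes. With 9 members these shares are coarse, and each pair of comparisons shares a group of libraries.

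**Figure D3:**
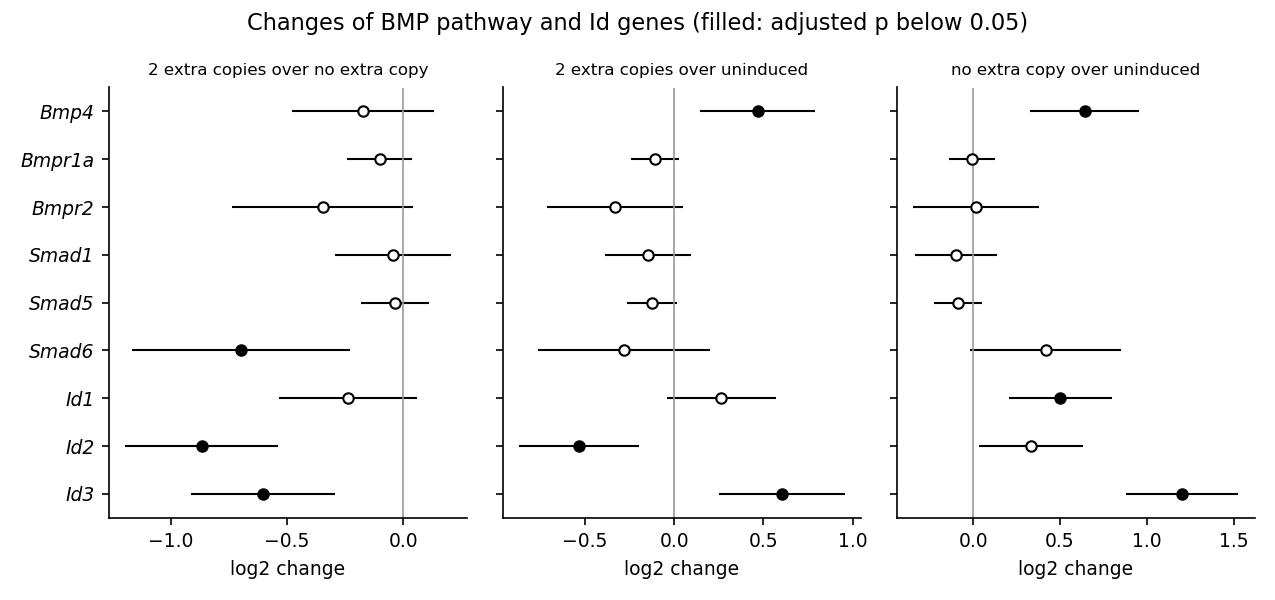
Log2 change of the 9 genes in the 3 comparisons, first-named group over second; points are edgeR estimates, bars are 95% intervals, and filled points have an adjusted p below 0.05. Smad6, Id2 and Id3 are filled on the left, Bmp4, Id2 and Id3 in the middle, and Bmp4, Id1 and Id3 on the right. Bmpr1a, Bmpr2, Smad1 and Smad5 are open throughout.

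The rest of the pathway was described from a list of 70 further genes, of which 43 passed the filter. With 2 extra copies against no extra copy 2 rose and 7 fell, against 8.30% and 7.70% of all genes. Against uninduced cells, 4 genes of the cells with 2 extra copies rose and 8 fell, against 12.8% and 12.1%. With no extra copy against uninduced cells 5 rose and 5 fell, against 7.10% and 6.39%. DESeq2 called 3, 8 and 4 in these comparisons. The list's median log2 change was -0.10, -0.06 and 0.10, against -0.01, -0.01 and 0.00 over all genes.

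Of 16 other ligand genes 4 were tested. Bmp8b, a BMP ligand known from germ cell specification in the mouse, was at 4.86 ± 1.01 CPM with 2 extra copies, 2.44 ± 0.618 CPM with no extra copy and 1.87 ± 0.251 CPM in uninduced cells (SD, n = 3 each). It was the one ligand higher with 2 extra copies against both groups, 2.04-fold (adjusted p = 0.00809, but 0.0770 with DESeq2) and 2.59-fold (adjusted p = 0.000324). Its transcript matches that of Bmp8a at 92.0% identity over 28.5% of its length, so reads can be shared, and genes on the opposite strand cover parts of its exons, Gm17244 (at most 6 counts in a library, against 11 to 34 for Bmp8b) 8.74% and Ppie (at most 416 counts) 3.43%; its level is uncertain. Bmp1, a protease named with the ligands that cleaves the antagonist chordin, was 1.75-fold lower with 2 extra copies than with no extra copy (adjusted p = 0.000929). It was 1.66-fold higher with no extra copy than in uninduced cells (adjusted p = 0.00160, but 0.0545 without replicate 2 with no extra copy). Bmp7 was 1.45-fold higher with 2 extra copies than in uninduced cells (adjusted p = 0.0156), which was lost without replicate 1 (0.0555) or 3 (0.0679) with 2 extra copies, without uninduced replicate 2 (0.0580) and with DESeq2 (0.103). Gdf3, a TGF-beta family ligand abundant in ESCs, was 1.12-fold lower in that comparison (adjusted p = 0.0393). This call was lost without replicate 1 (0.245) or 2 (0.101) with 2 extra copies, without uninduced replicate 2 (0.133) or 3 (0.166), in DESeq2 (0.206) and limma-voom (0.0699), with DESeq2 size factors (0.0541) and with only the 6 libraries compared (0.0628).

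Among 8 other receptors and coreceptors 7 were tested and Acvr2a, a type II receptor shared by BMP and activin, was called. It stood at 13.2 ± 1.24 CPM with 2 extra copies, 14.0 ± 0.624 CPM with no extra copy and 18.4 ± 0.481 CPM in uninduced cells (SD, n = 3 each). It was 1.41-fold lower with 2 extra copies than in uninduced cells (adjusted p = 0.00165). It was 1.30-fold lower with no extra copy (adjusted p = 0.0207), a call lost without replicate 2 (0.0555) or 3 (0.0642) with no extra copy, without uninduced replicate 1 (0.0608) or 2 (0.0776), with DESeq2 (0.188) and with length and GC offsets (0.0857). Exons of Orc4 on the opposite strand (at most 454 counts in a library, against 56 to 149 for Acvr2a) cover 7.84% of the Acvr2a exons. No source says that counting used strand, so the Acvr2a level is uncertain, by an amount that was not measured. Of the SMAD partners, Zfp423, a zinc-finger cofactor of BMP SMADs, was 1.22-fold lower with 2 extra copies than with no extra copy (adjusted p = 0.00541, but 0.0685 with DESeq2).

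The secreted antagonists and modulators that were called were lower with 2 extra copies. Chordin, Chrd, which binds BMPs outside the cell, was at 6.46 ± 1.06 CPM with 2 extra copies, 9.94 ± 0.702 CPM with no extra copy and 10.5 ± 1.53 CPM in uninduced cells (SD, n = 3 each). It was 1.61-fold lower with 2 extra copies than in uninduced cells (adjusted p = 0.00237) and 1.54-fold lower than with no extra copy (adjusted p = 0.0107). The second call was lost without replicate 2 with 2 extra copies (0.0752), without replicate 2 with no extra copy (0.0859) and with DESeq2 (0.0916). The follistatin-like gene Fstl1 was at 122 ± 4.23, 166 ± 2.13 and 153 ± 2.39 CPM in the same groups, 1.37-fold and 1.26-fold lower with 2 extra copies (adjusted p = 9.45e-09 and 7.24e-07). Exons of Thpo on the opposite strand (at most 35 counts in a library, against 29 to 96 for Chrd) cover 3.82% of the Chrd exons. The Chrd level is therefore uncertain, by an amount that was not measured. Chrd and Fstl1 were 2 of 10 antagonists tested in each comparison that involved 2 extra copies. Of all genes tested, 7.70% were called lower against no extra copy and 12.1% against uninduced cells.

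Of 9 intracellular inhibitors tested, 1 rose and 1 fell with 2 extra copies against no extra copy, where 16.0% of all genes were called. Against uninduced cells 2 fell with 2 extra copies (25.0% of all genes called) and 1 fell with no extra copy (13.5%). Skil, a SMAD corepressor, was 1.27-fold lower with 2 extra copies and 1.20-fold lower with no extra copy than in uninduced cells (adjusted p = 0.000287 and 0.00417). The phosphatase Ctdsp2 was 1.15-fold lower with 2 extra copies than with no extra copy (adjusted p = 0.00201) and 1.18-fold lower than in uninduced cells (adjusted p = 0.000135); its transcript matches that of Gm9770 at 99.5% identity over 16.8% of its length, so reads can be shared. Ppm1a, another SMAD phosphatase, was 1.14-fold higher with 2 extra copies than with no extra copy (adjusted p = 0.0141, lost without replicate 2 with 2 extra copies at 0.0518, without replicate 1 with no extra copy at 0.0829 and with DESeq2 at 0.0821). The other 6 of the 9 tested were not called.

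Of 13 other targets 7 were tested. Id4, a further Id gene, was scarce: 0.877, 0.903 and 1.74 CPM with 2 extra copies, 2.21, 3.01 and 3.33 CPM with no extra copy, and 0.562, 1.51 and 0.924 CPM in uninduced cells. Its libraries with no extra copy lay above all others. Opposite-strand genes cover 2.13% (A330033J07Rik, at most 3 counts) and 4.44% (Gm49291) of its exons, against 4 to 27 counts for Id4. It was 2.75-fold higher with no extra copy than in uninduced cells (adjusted p = 0.00736, but 0.0608 without replicate 2 with no extra copy and 0.0682 without uninduced replicate 1). It was 2.33-fold lower with 2 extra copies than with no extra copy (adjusted p = 0.0244, but 0.0828 and 0.104 without replicates 1 and 2 with 2 extra copies, and 0.122 and 0.0809 without replicates 2 and 3 with no extra copy). Gata2, a transcription factor gene that responds to BMP, was also scarce, with 10 to 42 counts per library. It was at 2.77 ± 0.697 CPM with 2 extra copies, 4.32 ± 0.507 CPM with no extra copy and 1.96 ± 0.531 CPM in uninduced cells. Gata2 was 2.21-fold higher with no extra copy than in uninduced cells (adjusted p = 0.00465). This passed in the 20 alternatives that gave a value, with adjusted p up to 0.0499. Tbx3, a T-box factor of naive ESCs, was at 34.4 ± 3.08 CPM with 2 extra copies, 40.6 ± 1.12 CPM with no extra copy and 27.9 ± 2.47 CPM in uninduced cells (SD, n = 3 each).

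Tbx3 was 1.46-fold higher with no extra copy (adjusted p = 1.99e-05) and 1.23-fold higher with 2 extra copies (adjusted p = 0.0119) than in uninduced cells. The second call was lost without replicate 1 with 2 extra copies (0.0570), without uninduced replicate 1 (0.0874) and with DESeq2 (0.0673). Its 1.19-fold fall with 2 extra copies against no extra copy (adjusted p = 0.0434) passed in only 8 of 21 alternatives, with adjusted p up to 0.252; among single libraries it was lost without replicate 2 (0.166) or 3 (0.169) with 2 extra copies, without replicate 1 (0.0902), 2 (0.179) or 3 (0.0626) with no extra copy and without uninduced replicate 3 (0.0508). Dusp9, an ERK phosphatase that BMP signals are known to induce in mouse ESCs, was at 113, 119 and 113 CPM with 2 extra copies, 109, 125 and 110 CPM with no extra copy, and 70.6, 81.0 and 72.3 CPM in uninduced cells. Both induced groups lay above the uninduced one and overlapped each other. Dusp9 was 1.54-fold higher with 2 extra copies and 1.55-fold higher with no extra copy than in uninduced cells (adjusted p = 3.26e-09 and 2.99e-09), and between the induced groups its log2 change was -0.01 (95% interval -0.13 to 0.11).

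The E proteins, which Id proteins bind, had mean levels over the 9 libraries of 238 CPM (Tcf3), 58.7 CPM (Tcf4) and 51.7 CPM (Tcf12). Their exon lengths are 4039, 27382 and 15529 bases in that order. These CPM values are not scaled to length, so they do not rank the E proteins against the Id genes. Tcf3 was at 236 ± 6.55 CPM with 2 extra copies, 238 ± 4.94 CPM with no extra copy and 241 ± 9.24 CPM in uninduced cells (SD, n = 3 each). It was not called, except with length and GC offsets for no extra copy against uninduced cells (log2 -0.10, adjusted p = 0.0436). Tcf4 was 1.29-fold lower with 2 extra copies and 1.21-fold lower with no extra copy than in uninduced cells (adjusted p = 9.58e-05 and 0.00433, the second 0.0517 with DESeq2 and 0.0893 with length and GC offsets). Tcf12 had log2 changes of -0.23 and -0.22 against uninduced cells (adjusted p = 0.0134 and 0.0263). The first of these Tcf12 calls was lost without replicate 3 with 2 extra copies (0.0835), without uninduced replicate 1 (0.0762) or 3 (0.0679), with DESeq2 (0.115) and under all 3 length or GC offsets (0.0826 to 0.113). The second was lost without replicate 1 (0.0505), 2 (0.0995) or 3 (0.0780) with no extra copy, without uninduced replicate 1 (0.131) or 3 (0.115), with DESeq2 (0.174) and with length and GC offsets (0.107). No E protein was called between 2 extra copies and no extra copy.

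**Figure D4:**
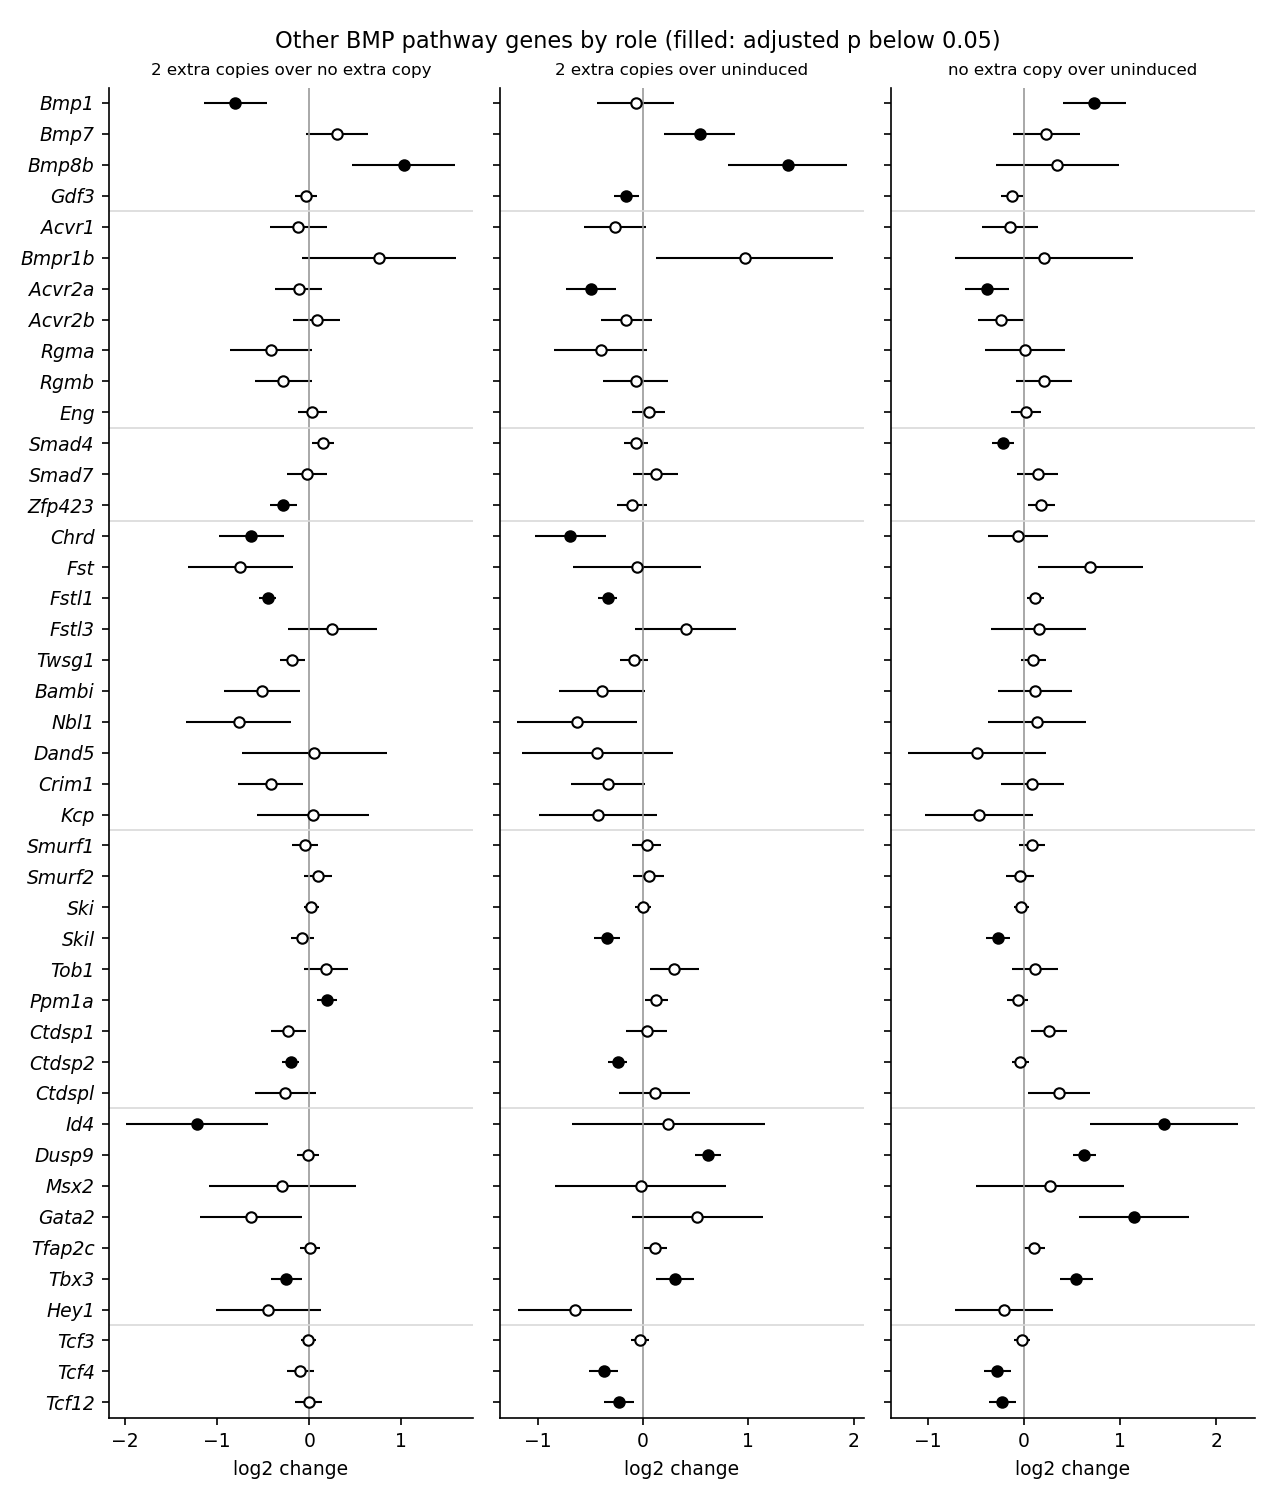
Log2 change of the 43 further pathway genes that passed the filter, in the 3 comparisons, first-named group over second; grey lines separate ligands, receptors, SMADs and cofactors, secreted antagonists, intracellular inhibitors, targets and E proteins from top to bottom. Points are edgeR estimates, bars are 95% intervals, and filled points have an adjusted p below 0.05; Chrd and Fstl1 are filled below 0 with 2 extra copies, and Dusp9 and Tbx3 above 0 against uninduced cells.

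Genes whose pattern over the 9 libraries was most like each target were listed from 9117 genes of at least 10 CPM, by Pearson r on log2 CPM, as a description. For Id3 they were Col1a2 (r = 0.980), Gadd45b (r = 0.966) and Tagln (r = 0.961). For Id2 they were P4hb (r = 0.986), Lpin2 (r = 0.969) and Nectin2 (r = 0.969). For Id1 they were Pxn (r = 0.974), Arap1 (r = 0.962) and Mapk14 (r = 0.957), and for Bmp4 Mpv17l2 (r = 0.986), Syt9 (r = 0.972) and Mvp (r = 0.958). The points share libraries and scaling, and the best of many genes is high by selection.

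Markers of other cell types also differed between the groups. Beside the counts below, 8.30% of all genes tested were called higher and 7.70% lower with 2 extra copies against no extra copy. The shares were 12.8% and 12.1% with 2 extra copies against uninduced cells, and 7.10% and 6.39% with no extra copy against uninduced cells. Summed levels of the fibroblast and trophectoderm lists had the order of Id3, highest with no extra copy and lowest in uninduced cells, whereas those of the endoderm and neuroectoderm lists were lowest with 2 extra copies. The 11 fibroblast markers, 8 of them tested and led by Tagln and Acta2, summed to 126 to 135 CPM with 2 extra copies, 202 to 226 CPM with no extra copy and 82.1 to 87.3 CPM in uninduced cells. Of these, 4 were lower with 2 extra copies than with no extra copy, and 5 were higher in each induced group than in uninduced cells. The 5 were Tagln, Acta2 and the collagen genes Col1a1, Col1a2 and Col3a1. The other 3 tested, Pdgfra, Pdgfrb and Thy1, were not called in either of these comparisons. Pdgfra and Pdgfrb had higher means in both induced groups than in uninduced cells. Thy1 went the other way, at 3.41 ± 1.51, 4.09 ± 0.801 and 4.99 ± 1.03 CPM in the order of groups above (SD, n = 3 each). With no extra copy against uninduced cells Col1a1 was 2.81-fold, Col1a2 3.66-fold and Col3a1 1.79-fold higher (adjusted p = 3.70e-11, 4.22e-14 and 0.0322). The 3 markers under the filter, Dcn, Lum and Postn, had at most 3, 1 and 5 counts in a library. The 12 extraembryonic endoderm markers, led by Sparc and Lama1, summed to 204 to 220, 303 to 346 and 235 to 238 CPM in the same groups, with 5 of 7 tested lower with 2 extra copies than with no extra copy and 3 of 7 higher with no extra copy than in uninduced cells, and 2 of 7 lower with 2 extra copies than in uninduced cells. The 8 trophectoderm markers, led by Tfap2c and Krt8, summed to 187 to 202, 214 to 239 and 148 to 160 CPM, with 3 of 4 tested lower with 2 extra copies than with no extra copy and 2 of 4 higher in each induced group than in uninduced cells. Neuroectoderm markers, led by Nes and Sox1, summed to 65.6 to 74.3, 86.4 to 95.7 and 83.9 to 91.3 CPM, and all 3 tested were lower with 2 extra copies than with no extra copy, 2 of 3 lower with 2 extra copies than in uninduced cells and 1 of 3 higher with no extra copy than in uninduced cells. Primitive streak markers, led by Eomes and Fgf8, summed to no more than 11.4 CPM in any library, with 1 of 2 tested lower with 2 extra copies than with no extra copy and 1 of 2 higher in each induced group than in uninduced cells. Pdgfra stands in both the fibroblast and the endoderm list, and Eomes in both the trophectoderm and the streak list. No marker in these lists was at 0 in all 9 libraries. The part of these cells or genes in the Id, Smad6 and Bmp4 changes was not tested.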

How the data were processed

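Per the labels' protocols, total RNA of the sorted cells was read from one end over 75 bp. The values the authors deposited are RSEM expected counts (version 1.17 in the submitters' processing notes; GRCm38, annotation 84 in the file headers), in which a read that matches several genes is shared out among them. Roles of cutadapt, Picard and limma, named in those notes, the aligner and any use of strand are not given in the sources used here.

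From these, counts were rounded, filtered with filterByExpr by group (99.8% of counts kept) and tested with edgeR 4.0.16 in R 4.3.3 (TMM scaling, robust quasi-likelihood fit over 9 libraries, 1 coefficient per group, Benjamini-Hochberg over 13424 genes, called at an adjusted p below 0.05). CPM uses TMM scaling; SE was taken from the log2 change and its F. TPM used unrounded counts and exon unions of GENCODE M21 (GRCm38), which named 35432 of 35771 identifiers. The groups, the comparisons, the alternatives (DESeq2 1.42.0, limma 3.58.1 voom, other scaling and filters, length offsets, the replicate block, leaving out libraries) and the lists were written down beforehand, but the members and lists were chosen with earlier results of these data known. Named genes were all 9 members, Myc, called genes of the further list, Smad4, the E proteins, the 3 genes most like Id1, Id2, Id3 and Bmp4, and the 2 strongest markers per list. The other fibroblast markers were named after their values were seen. Length offsets were lowess trends of each library on transcript length; offsets for length and GC content were added after seeing the data. The fit was tested on simulated data. No member had another gene's transcript at 95% identity over 50% of its length (minimap2 2.31-r1302), and annotated genes overlapping exons of Bmp4, Bmpr1a and Smad5 had at most 1 count in a library.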

Additional observations from a re-analysis of the deposited data

How the results depend on the processing

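Directions of all called member changes held in all 21 alternatives; over the members and comparisons, 307 values under other settings and 212 without a library kept direction and side of the threshold, 9 and 18 lost the call, 2 and 3 gained it, and 6 and 10 changed the sign of an uncalled change. DESeq2 called fewer genes: 1075, 1889 and 806 in all against 2148, 3350 and 1811 with edgeR (2 extra copies against no extra copy, 2 extra copies against uninduced, no extra copy against uninduced), 1, 0 and 1 members against 3, 3 and 3 (0 being beside 3 at an unadjusted p under 0.05), and 3 and 4 further pathway genes in the first and last comparison against 9 and 10; the cause was not tested. The members' median log2 change became -0.18 with length offsets and -0.17 with these and the block (against -0.24) in the first comparison, and -0.041, -0.042 and, with length and GC offsets, -0.031 (against -0.13) in the second. Leaving out 1 library gave 1 to 3, 1 to 4 and 1 to 3 members called, 1397 to 2564, 2453 to 3719 and 1177 to 2201 genes in all, and 6 to 10, 10 to 13 and 6 to 12 further pathway genes. It gave medians of -0.34 to -0.21, -0.18 to -0.076 and 0.22 to 0.42. The lowest counts of all genes in the first and last comparison came without replicate 2 with no extra copy, the deepest library. The part of depth in this was not tested. Without that library 1 member (Id3) and 6 further genes were called in the last comparison. The members called fell to 1 without replicate 3 with 2 extra copies in the first comparison, and without replicate 2 with 2 extra copies or uninduced replicates 1 or 2 in the second.

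With library size alone, 774 of the genes called were higher and 1360 lower in the first comparison, against 1114 and 1034 with TMM; the same members were called. The replicate numbers did not pair the samples (r of deviations from -0.081 to 0.081 in 9 pairs), and the replicate block gave 3, 3 and 3 members, 9, 13 and 10 further genes and 2233, 3440 and 1933 genes in all; among the named genes it changed 1 call, the Tbx3 fall in the first comparison (adjusted p = 0.0559). Uncalled changes near 0 took the other sign. With no extra copy against uninduced, Bmpr1a became 0.0081 with library size alone, 0.020 with length offsets, 0.024 with these and the block, 0.079 with length and GC offsets and -0.086 to 0.044 without 1 library, and Bmpr2 ranged from -0.099 to 0.19 without 1 library. With 2 extra copies against no extra copy, Smad5 became 0.020 with length offsets, 0.020 with these and the block and -0.098 to 0.044 without 1 library, and Smad1 -0.11 to 0.0063 without 1 library. There Tcf12 became 0.0032 with DESeq2, 0.0017 with its size factors, 0.042 with length offsets, 0.034 with these and the block, 0.016 with length and GC offsets and -0.026 to 0.032 without 1 library. Tcf3 became 9.1e-05 with DESeq2, 8.2e-05 with its size factors, 0.049 with length and GC offsets and -0.023 to 0.030 without 1 library, and, against uninduced, -0.059 to 0.0063 without 1 library. Members with under about 100 counts per library limit the precision of changes under 1.5-fold.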
